A study of Mus musculus with 9 samples.

Results

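The 4 immune miRNAs mmu-miR-146a, mmu-miR-146b, mmu-miR-155 and mmu-miR-150, written here without the species prefix, were measured in isolated glomeruli on 9 microarrays, and none of them passed the main test for a change in early or late glomerulonephritis (GN). Among the settings run, miR-155 was called higher in late GN than in control only when the deposited values alone were fitted, without the scanner signal of unlisted spots. They were chosen by name, as the guide-strand probes of these miRNAs, and make up 4 of the 1135 miRNA probes on the array. The control group held female C57BL/6 mice of 9 months of age, the early GN group female B6.MRLc1 mice of 9 months, and the late GN group female B6.MRLc1 mice of 14 months, with 3 arrays per group and no treatment in any mouse. B6.MRLc1 is a congenic strain that carries a segment of chromosome 1 of the autoimmune MRL strain on the C57BL/6 background and develops autoimmune GN spontaneously. The groups follow the sample titles, since the strain entry of the early GN samples reads C57BL/6 and the series text exchanges the ages of both disease stages. There was no control at 14 months, so that age and disease stage cannot be told apart in late GN. The arrays measured total RNA of glomeruli collected by bead perfusion, which holds resident cells together with any leukocytes in the tuft. In such RNA fewer cells of a type and less miRNA per cell cannot be told apart.

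miRNAs are short RNAs that guide the silencing machinery to messenger RNAs, mainly through the seed at bases 2 to 8. miR-146a is induced by NF-kB after Toll-like receptor signalling. Both miR-146a and miR-146b can repress the adaptors IRAK1 and TRAF6, and so act as a brake on that pathway. miR-155 is induced in activated macrophages, dendritic cells and lymphocytes from the host transcript Bic and represses, among others, the phosphatase SHIP1. miR-150 is abundant in mature lymphocytes and represses the transcription factor c-Myb. In glomeruli these miRNAs can come from infiltrating leukocytes and, for miR-146a and miR-155, from activated resident cells.

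The mature sequences are shown because miR-146a and miR-146b are read by separate probes although they are nearly the same molecule. RefSeq entries on GRCm38.p6 matched 3 of the 4 members by name, and the capitals mark the seed. The 3p arm of the miR-155 hairpin, which the array names miR-155*, is added because its signal is described beside that of miR-155.
mmu-miR-146a-5p: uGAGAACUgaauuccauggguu
mmu-miR-146b-5p: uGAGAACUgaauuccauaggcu
mmu-miR-155-5p: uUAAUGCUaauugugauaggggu
mmu-miR-155-3p: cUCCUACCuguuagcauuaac
miR-146a and miR-146b carry the same seed, and no other mature miRNA of the table has it. They are identical at 20 of 22 positions and differ by G18A and U21C, with the miR-146a base first and positions counted from the 5′ end. How far the array probes separate these mature forms was not tested. The seed of miR-155 is carried by 1 mature miRNA in the table.

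The genes lie on 4 chromosomes. The mature miR-146a maps to chr11:43374435-43374456 on the minus strand, in Mir146, which overlaps no other gene of the RefSeq table. The mature miR-146b maps to chr19:46342790-46342811 on the plus strand, within the bounds of Gm36493. The mature miR-155 maps to chr16:84714143-84714165 on the plus strand, within the bounds of its host gene Mir155hg. Mir150 lies at chr7:45121757-45121821 and overlaps no other gene of the table. The table gives gene bounds only, so that exon and intron were not assigned.

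The values described below are the deposited normalized intensities, on a linear scale whose median over the probes listed on an array is 25 on each of the 9 arrays. The number of probes listed on an array ran from 428 to 755, and 411 miRNAs were listed on all 9. The median was set over a different number of listed probes on each array. The median of the 411 common miRNAs shifted between arrays, and the cause of the shift was not tested. The 411 did not all move alike. In late GN against control, 11 of 13 miRNAs of resident kidney cells and red blood cells had a log2 fold change below 0. Over these 411, the middle log2 fold change stood at -0.38 for early GN over control, at 0.45 for late GN over control and at 0.70 between the disease stages, late over early. With arrays scaled to the spike controls instead, these medians were -0.28, 0.44 and 0.57, in the same order. By array the shift from the control arrays was -1.03, -0.61 and 0.51 on early GN arrays 1, 2 and 3, and 0.33 to 0.44 on the late GN arrays. Member changes are therefore read against these shifts, and are given a second time after all arrays were brought to equal medians of the 411 miRNAs, called the common median here. The common median takes out the shift of the median only. The glomerular markers miR-126-3p, with 9648 to 25735, and miR-30a, with 3925 to 11116, were listed on every array, as were miR-192 of the tubules, with 147 to 628, and miR-451 of erythrocytes, with 206 to 952. The number of arrays, 3 per group, limits the precision of every comparison.

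miR-146a was listed on all 9 arrays, at 29.7 to 172 times the SD of the blank spots above their mean. Its normalized intensity was 421, 590.4 and 258 on the 3 control arrays, 342, 127 and 529 on the early GN arrays, and 582, 355 and 774 on the late GN arrays. The highest value stood in late GN and the lowest in early GN, and every pair of groups overlapped. The means were 423 ± 166 in control, 333 ± 201 in early GN and 570.2 ± 209 in late GN (SD, n = 3 each).

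miR-146b lay closer to the blank spots, at 7.04 to 21.1 blank SDs above their mean. Its normalized intensity was 68.2, 96.3 and 93.6 in control, 58.6, 30.6 and 110.4 for early GN, and 83.4, 55.4 and 88.1 for late GN. The early GN arrays held both the lowest and the highest value, and the late GN arrays lay within the early GN range. The means were 86.0 ± 15.5, 66.5 ± 40.5 and 75.6 ± 17.7 (SD, n = 3 each).

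miR-150, the lymphocyte miRNA, was listed on all arrays at 5.06 to 18.1 blank SDs above the blank mean. Its normalized intensity was 67.6, 54.1 and 65.8 in control, 24.9, 23.6 and 113 for early GN, and 64.8, 40.9 and 54.8 for late GN. The control arrays were the closest to each other, whereas early GN array 3 lay above every other array and early GN arrays 1 and 2 below every other array. The means were 62.5 ± 7.35, 53.8 ± 51.2 and 53.5 ± 12.0 (SD, n = 3 each).

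miR-155 was the member nearest the limit of measurement. Its normalized intensity was 7.61, 7.97 and 6.16 in control and 25.9, 12.3 and 24.2 in late GN, whereas in early GN only array 3 listed it, at 31.8. All late GN values lay above all control values, with means of 20.8 ± 7.39 and 7.25 ± 0.958 (SD, n = 3 each). The same ordering was found for 49.1% of the 411 miRNAs listed on all arrays.

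**Figure D1:**
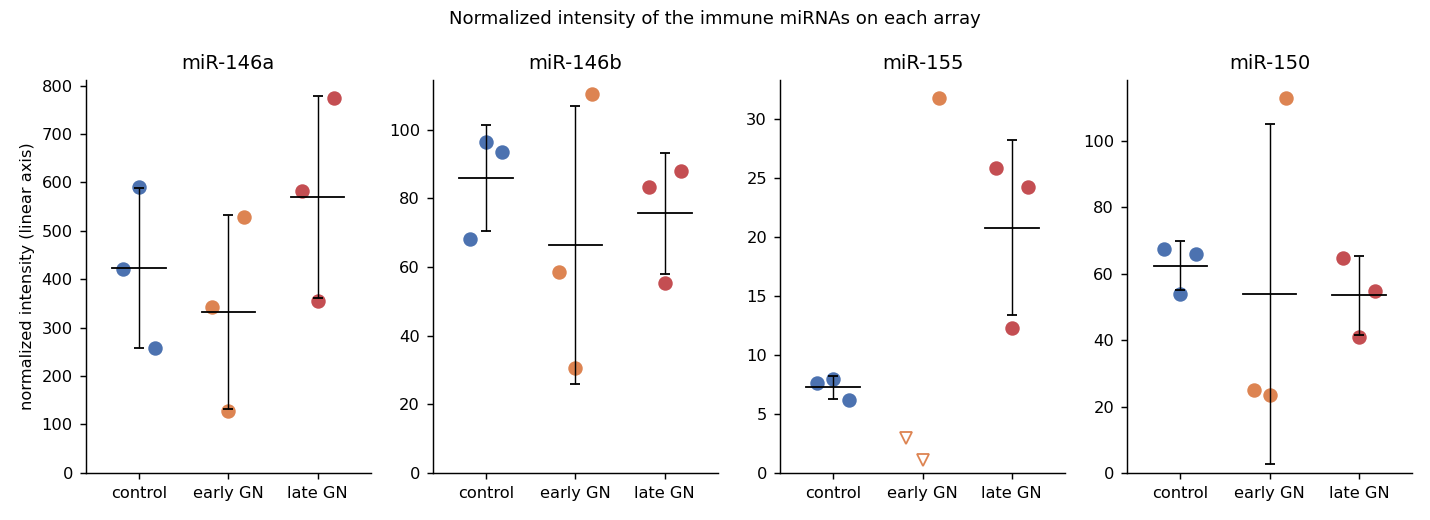
Normalized intensity (linear axis from 0) of miR-146a, miR-146b, miR-155 and miR-150 on each array, with filled points for listed values, horizontal lines for the group mean and bars for the SD of 3 listed values. Open triangles show miR-155 on early GN arrays 1 and 2, where it was unlisted, at 2.94 and 1.10 as rebuilt from the scanner signal. Only for miR-155 do the listed late GN values, 12.3 to 25.9, all lie above the control values, 6.16 to 7.97.

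The scanner signal of miR-155 showed how little of this value stood above the blank spots. The spot signal was 40, 33 and 35 in control, 37, 36 and 40 for early GN, and 44, 38 and 53 for late GN, against blank spots with a mean of 30.5 to 36.8 on the same arrays. In blank SDs above the blank mean this was 1.88, 0.77 and 0.74 in control, 0.78, 0.25 and 3.75 for early GN, and 4.88, 2.01 and 4.88 for late GN. Every late GN array was therefore above every control array on this scale, which uses no array factor (exact permutation test, 2-sided, p = 0.1, the smallest p that 3 arrays against 3 allow), as was the case for 28.7% of the 1135 probes. The scanner gain was not equal, at 35 on every control array and 35, 36 and 37 on late GN arrays 1, 2 and 3. It was 36 on early GN array 1 and 35 on early GN arrays 2 and 3. The part of the gain in these signals was not tested. The blank spots at or above the miR-155 signal made up 4.46%, 26.9% and 27.5% in control, 24.6%, 43.6% and 0.11% for early GN, and 0.055%, 3.36% and 0.055% for late GN. The miR-155 spot was thus within the range of the blanks on the control arrays and on early GN arrays 1 and 2, and late GN array 2, at 2.01 blank SDs, was little above control array 1, at 1.88. Control arrays 2 and 3 and early GN array 1 stood at nearly the same height over the blanks, but the control arrays listed a value and the early GN array did not.

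A listed value was not by itself a sign of a miRNA above background. Of the 39 probes for miRNAs of mouse cytomegalovirus and murine gammaherpesvirus, 14 to 16 were listed on the control arrays, 13, 13 and 21 on the early GN arrays, and 21 to 24 on the late GN arrays. The 10 viral probes listed on all 9 arrays had a median log2 fold change of 0.99 in late GN against control, and 2 of them were higher by limma. These probes lay on the same side as miR-155, and their part in its result was not tested.

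**Figure D2:**
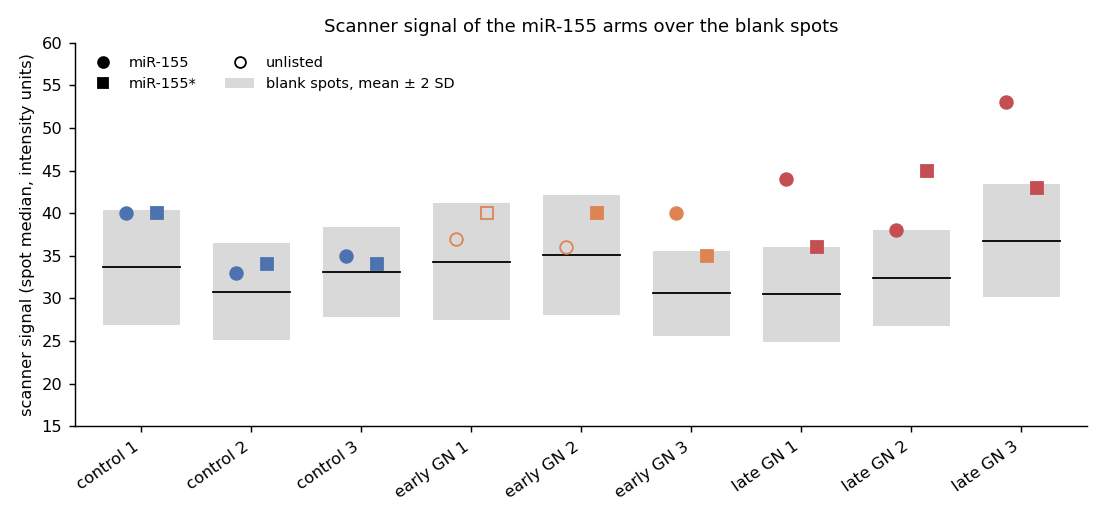
Scanner signal (spot median, intensity units, axis from 15) of miR-155 (circles) and of the other arm miR-155* (squares) on each array, over the mean and 2 SDs of the blank spots of that array (grey). Open symbols were unlisted. miR-155 stood above the grey band on early GN array 3 and on all 3 late GN arrays, only just on late GN array 2 at 2.01 SDs.

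The other arms of the hairpins gave no second reading of miR-146. miR-146a* and miR-146b* were listed on 0 of 9 arrays, with signals from 1.45 blank SDs below to 0.91 above the blank mean. miR-155* was listed on 8 arrays, at 9.06, 5.91 and 5.72 in control, 6.20 and 13.1 on early GN arrays 2 and 3, and 14.9, 22.8 and 8.70 in late GN. The late GN values overlapped the control values, and the array with the highest miR-155*, late GN array 2, had the lowest miR-155 of its group. miR-150* was listed on 1 control array at 15.9, on 1 early GN array at 7.02 and on all late GN arrays at 11.4, 10.5 and 5.51, with no signal beyond 2.35 blank SDs above the blank mean. Its signal over the blanks overlapped between all groups.

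The first comparison asked how the early stage differs from control at the same age. None of the 4 members was called at an adjusted p under 0.05 by limma, with 1 of the 411 listed miRNAs, 0.243%, called in this comparison. On the deposited scale the log2 fold change was -0.49 for miR-146a (95% interval -1.36 to 0.38), -0.55 for miR-146b (-1.42 to 0.33) and -0.62 for miR-150 (-1.49 to 0.25), each with a standard error of 0.44. The standard error is the same because this fit gave all 411 miRNAs the same variance, whatever their own spread. The limma adjusted p was 0.592, 0.514 and 0.437. All 3 values were below the median of -0.38 over the 411 miRNAs, by a small margin. At the common median, where 10.7% of the 411 were called, the members had -0.11, -0.16 and -0.24 and limma adjusted p of 0.552 to 0.877. miR-155, which needed values on every array, was fitted over all 1135 probes on intensities rebuilt from the scanner signal, with a floor of 3.02. Its log2 fold change in early GN was 0.12 with a 95% interval of -1.99 to 2.22 (limma adjusted p = 1.0), where limma called 0 of the 1135 probes, 0%. Without adjustment, a p under 0.05 was reached upward by 13 probes and downward by 64. None of the 4 members passed an unadjusted p of 0.05 in early GN, by limma or by the methods' t-test. For miR-155 both were run on the rebuilt values.

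Early GN array 3 moved the early GN result of every member. Without it, miR-146b was lower than control with a log2 fold change of -1.01 (limma adjusted p = 0.0196) and miR-150 with -1.36 (limma adjusted p = 0.0008), while miR-146a stood at -0.94 (limma adjusted p = 0.108). In that setting 232 of the 411 miRNAs, 56.4%, were called lower, so that 2 of 3 members called lie close to the background. Without the same array the rebuilt miR-155 turned to -0.84 (limma adjusted p = 0.567). Leaving out early GN array 2 instead brought miR-146a to 0.088. On the other scale, the common median, early GN array 1 was the highest of its group for miR-146a, at 655 against 193 and 385, and for miR-146b, at 112.0 against 46.4 and 80.4. Array 3 was the highest for miR-150, at 82.3 against 47.6 and 35.8, and the only one to list miR-155.

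The second comparison, of late GN with control, gave no call among the members either, against 17 of 411 miRNAs, 4.14%, by limma, of which 16 were higher and 1 lower. At a common median 255 of the 411, 62%, were called, 132 higher and 123 lower. miR-146a had a log2 fold change of 0.44 (95% interval -0.43 to 1.31, limma adjusted p = 0.467), the same as the median of 0.45 over all 411 miRNAs, and of 0.12 at a common median. miR-146b had -0.20 (-1.07 to 0.67, limma adjusted p = 0.757) and miR-150 -0.24 (-1.11 to 0.63, limma adjusted p = 0.712), both below that median. At a common median these became -0.51 (-1.17 to 0.15, limma adjusted p = 0.152) and -0.56 (-1.16 to 0.045, limma adjusted p = 0.094). All 3 late GN arrays then had less miR-150 than all 3 control arrays, at 49.9, 32.4 and 44.6 against 65.0, 54.4 and 64.9 (exact permutation test, 2-sided, p = 0.1), but 35.5% of the 411 miRNAs had the same ordering on that scale. The brake miR-146a and its near twin miR-146b thus lay on opposite sides of 0 in late GN, with intervals that overlap widely, but not on the scale of the 75th percentile over all probes, where miR-146a had -0.076, nor without late GN array 2, where miR-146b had 0.012. None of the 4 members passed an unadjusted p of 0.05 in late GN against control by limma or by the methods' t-test, both run for miR-155 on values rebuilt from the scanner signal. On its deposited values miR-155 did pass by limma, as given next.

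miR-155 stood farther from control in late GN than the other members on the main scale, and did not pass the test. On the rebuilt scale its log2 fold change was 1.70 with a standard error of 0.885 (95% interval -0.41 to 3.80, limma adjusted p = 0.444), where 6 of 1135 probes, 0.529%, were called. The rebuilt value of control array 1, 10.6, was above that of late GN array 2, 9.99, so that the groups overlapped on this scale (exact permutation test, 2-sided, p = 0.2). On the deposited values alone, an alternative chosen after the data were seen, the log2 fold change was 1.46 (0.61 to 2.30) with a limma adjusted p of 0.0266, where 25 of 593 miRNAs, 4.22%, were called higher. That fit takes the deposited value of a spot within the blank range as it stands, and the rebuilt and deposited values differed by a median of 1.72 to 2.39 intensity units on an array. Non-overlap of this kind was common: 49.1% of the 411 listed miRNAs had all late GN values above all control values on the deposited scale. With a pseudocount of 16 added the log2 fold change fell to 0.64, and after normexp correction with quantile normalization to 0.11, closer to 0 than any other member. The limma adjusted p of miR-155 in late GN ran from 0.0266 to 0.473 over the alternative settings, and from 0.119 to 0.691 when single arrays were left out.

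The last comparison, of late with early GN within B6.MRLc1, had 7 of 411 miRNAs called by limma, 1.7%, and again none of the members. miR-146a had a log2 fold change of 0.93 (95% interval 0.061 to 1.80), with an unadjusted limma p of 0.0361 that did not pass the adjustment (adjusted p = 0.15). The exact permutation test gave p = 0.2 (2-sided). The interval and limma p rest on the variance shared by all 411 miRNAs. The log2 SD of miR-146a itself was 0.57 in late GN and 1.05 in early GN. The median of all 411 miRNAs was 0.70 in this comparison, and at the common median, where 0.243% were called, miR-146a had 0.23 (-0.70 to 1.17). miR-146b and miR-150 had 0.35 and 0.38 on the deposited scale and -0.35 and -0.32 at a common median, so that the sign depended on the scaling. The rebuilt miR-155 had 1.58 (-0.53 to 3.69, limma adjusted p = 0.415), where 0.441% of the 1135 probes were called, and on deposited values alone, with only array 3 left in early GN, -0.69. Without early GN array 3 all 4 members were higher in late GN by limma, with log2 fold changes of 1.38, 0.81, 2.53 and 1.12 for miR-146a, miR-146b, miR-155 and miR-150 (adjusted p = 0.0175, 0.0322, 0.0333 and 0.0021). In that setting 376 of 411 miRNAs, 91.5%, and 307 of 1135 probes on the rebuilt scale, 27%, were also called higher.

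**Figure D3:**
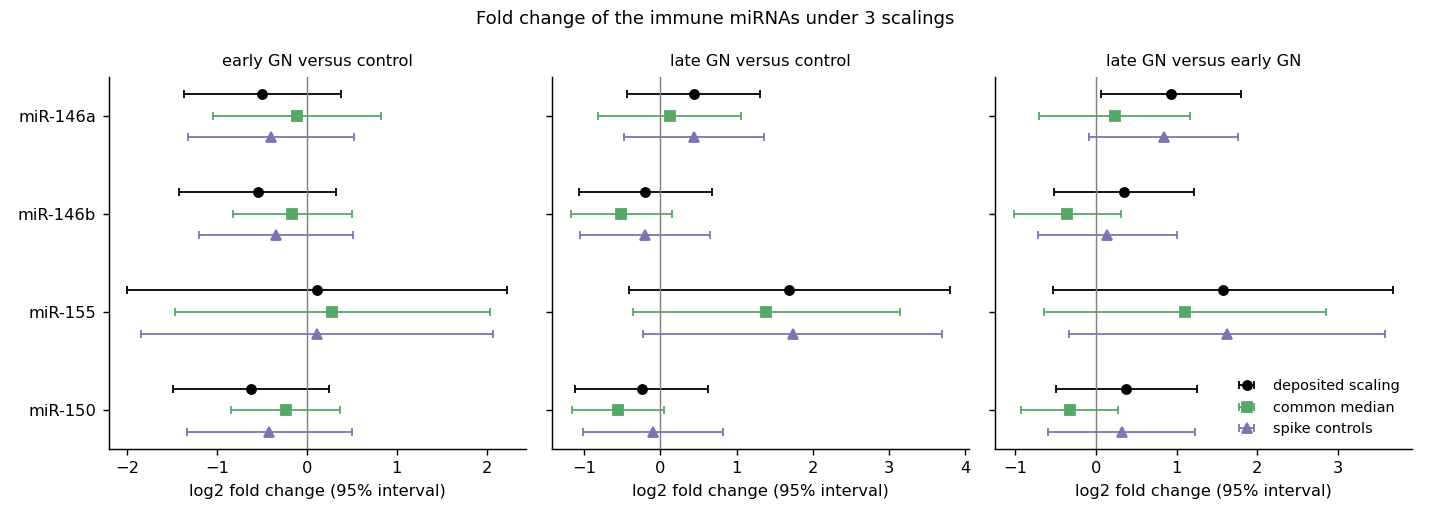
log2 fold change of the 4 members in the 3 comparisons with 95% intervals from limma, on the deposited scaling (circles, rebuilt intensities for miR-155), at a common median over 411 miRNAs (squares) and scaled to the spike controls (triangles). miR-146b and miR-150 in late against early GN change sign between the deposited scaling, 0.35 and 0.38, and the common median, -0.35 and -0.32, and the only interval that leaves out 0 is that of miR-146a in late against early GN, 0.061 to 1.80 on the deposited scaling. Except for miR-155, intervals on the deposited scaling use the variance shared by all 411 miRNAs, not the spread of the member itself.

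The 9 arrays came from 5 slides. Late GN arrays never shared a slide with another group, so that slide and late GN cannot be told apart. Control and early GN met on 1 slide, with control array 3 and early GN array 1. On it miR-146a was 258 in control and 342 in early GN, miR-146b 93.6 and 58.6, and miR-150 65.8 and 24.9. The slide that held early GN arrays 2 and 3 gave 127 and 529 for miR-146a and 23.6 and 113 for miR-150, so that the spread of this group was present within a slide. With slide as a random block the limma log2 fold changes of the members differed little from those above, and none was called, with adjusted p from 0.306 to 1.0.

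A difference of log2 values between 2 probes of the same array does not change with the scale of the array, and shows only whether the probes changed unequally. miR-142-3p, which is made in nearly all blood cells, served as the common partner. Its normalized intensity was 13.4, 20.1 and 24.7 in control, 20.0, 13.4 and 67.5 for early GN, and 50.6, 31.6 and 56.3 for late GN. All late GN values lay above the control values, as did those of 49.1% of the 411 miRNAs, and the control spots stood only 2.76 to 5.29 blank SDs above the blank mean. The exact permutation test was run on 18 such differences, and no p was below 0.1, or below 0.3 after Benjamini-Hochberg adjustment over the 18, of which 6 involve miR-155 and are not read as tests.

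The difference of miR-150 from miR-142-3p was 2.34, 1.43 and 1.41 on the control arrays, 0.31, 0.82 and 0.74 for early GN, and 0.36, 0.37 and -0.038 for late GN. Both GN groups lay below control without overlap, the early one by -1.10 and the late one by -1.50 (exact permutation test, 2-sided, p = 0.1 each). The difference of miR-146b from miR-142-3p was 2.35, 2.26 and 1.92 in control, 1.55, 1.20 and 0.71 for early GN, and 0.72, 0.81 and 0.65 for late GN. It lay lower without overlap as well, by -1.03 in early GN and -1.45 in late GN (exact permutation test, 2-sided, p = 0.1 each). This was no mark of these members, since 35.4% of the other 410 listed miRNAs lay below control in the same way in early GN, and 45.6% did so in late GN. The median change over the 410 was -0.86 for the early and -0.81 for the late group.

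miR-146a kept closer to the median of the listed miRNAs on this measure. Its difference from miR-142-3p was 4.97, 4.88 and 3.39 in control, 4.10, 3.25 and 2.97 for early GN, and 3.52, 3.49 and 3.78 for late GN. Control array 3 lay among the GN arrays, and the changes of -0.97 and -0.81 had an exact permutation p of 0.2 and 0.4 (2-sided). miR-155 minus miR-142-3p differed from control by -0.29 in early and 0.43 in late GN, with overlap in both. It is given with no test, since miR-155 lay within the blank range on all control arrays and on early GN arrays 1 and 2.

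The difference between miR-150, known from resting lymphocytes, and miR-155, known from activated immune cells, was lowest on the late GN arrays. The log2 difference miR-150 minus miR-155, from the rebuilt values, was 2.48, 3.69 and 4.04 in control, 3.04, 2.88 and 2.27 for early GN, and 1.17, 2.19 and 1.34 for late GN. Late GN lay below control by -1.83 and below early GN by -1.16, without overlap in either. Of the 411 listed miRNAs, 37.5% lay below control in late GN in the same way against miR-155, and 6.08% lay below early GN. These values are given with no test, because miR-155 stood only 0.74 to 1.88 blank SDs above the blank mean on the control arrays, and on early GN arrays 1 and 2 its rebuilt value of 2.94 and 1.10 was raised to the floor of 3.02. The differences on those 5 arrays therefore rest on the blank level and not on a measured miR-155. The difference miR-150 minus miR-146a overlapped between all groups, with a change of -0.13 in early GN and -0.68 in late GN (exact permutation test, 2-sided, p = 0.8 and 0.3).

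**Figure D4:**
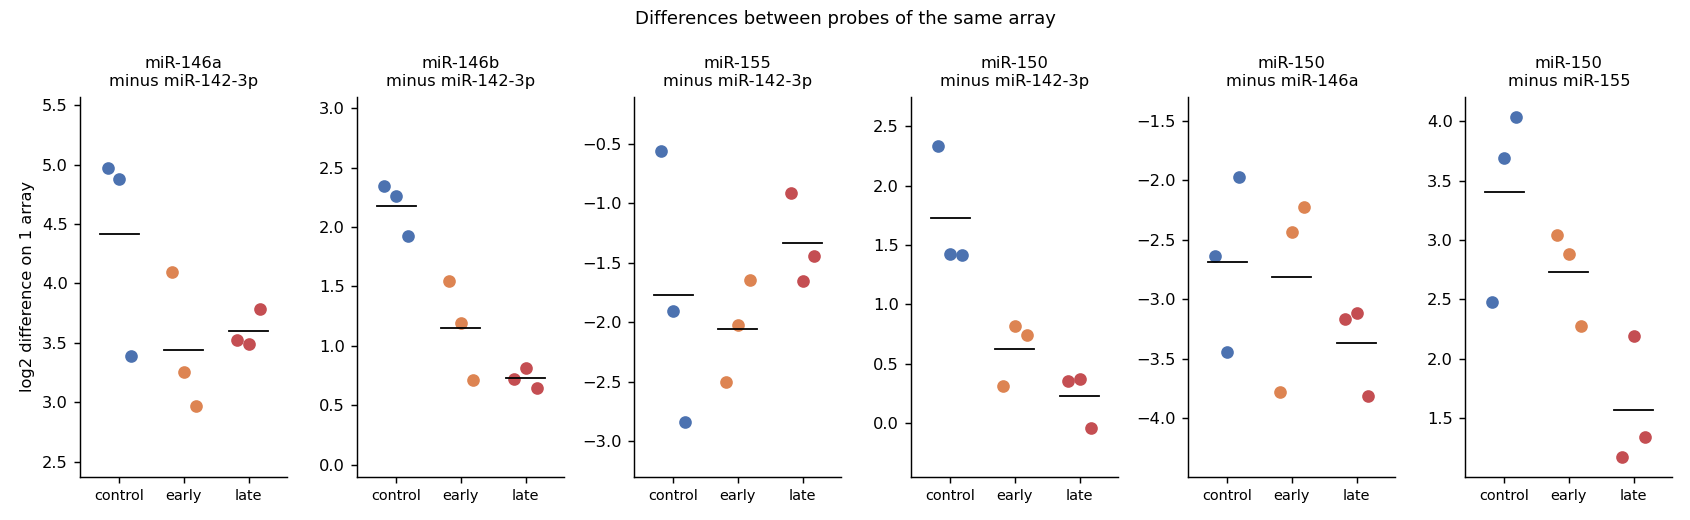
log2 difference between 2 probes of the same array, for each member minus miR-142-3p and for miR-150 minus miR-146a and minus miR-155, with a point per array and a line at the group mean; each panel spans the same log2 range. The control arrays lie above all GN arrays for miR-146b and miR-150 minus miR-142-3p, and the late GN arrays lie lowest for miR-150 minus miR-155, at 1.17 to 2.19; in both panels with miR-155 the control arrays and early GN arrays 1 and 2 rest on a signal within the blank range.

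Other leukocyte miRNAs were set beside the members, from a list of 8 of which 7 were listed on all 9 arrays. In late GN against control, 0 of the 7 passed the limma test on the deposited scale, 4 had a log2 fold change above 0, and the list median was 0.40, against 0.45 over the 411. miR-142-3p had 1.25 (limma adjusted p = 0.0796), its other arm miR-142-5p 1.09 (0.109) and the myeloid miRNA miR-223 1.20 (0.1). miR-223 was 99.5, 153 and 134 in control, 176, 48.3 and 74.6 for early GN, and 319.5, 239.8 and 323 for late GN, and every late GN value was above all other arrays. On the deposited scale it was the only list member called, in late against early GN with a log2 fold change of 1.76 (limma adjusted p = 0.0155). There 1.7% of the 411 were called and their median was 0.70. In the same comparison miR-223 was not called at a common median (1.06, limma adjusted p = 0.243) or with the spike controls (1.64, 0.118). In late GN against control at a common median, where 62% of the 411 were called, 3 of the 7 were called. miR-142-3p was higher in late GN (0.94, limma adjusted p = 0.0343), and miR-181a (-0.61, 0.0187) and miR-181d (-0.85, 0.0371), which are abundant in developing lymphocytes, were lower. In early GN 0 of the 7 were called on either scale, with a list median of -0.56 on the deposited scale, against -0.38 over the 411.

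The summed normalized intensity of the 7 leukocyte miRNAs was 523 to 579 in control, 231 to 717 in early GN and 651 to 819 in late GN. Late GN was thus above control without overlap in this sum, an ordering that 49.1% of the 411 single miRNAs also had on this scale. The sum is no reading of the list as a whole. miR-223 alone ran from 99.5 to 153 in control and from 240 to 323 in late GN. miR-181a, miR-181b and miR-181d, 3 of the 7, had a log2 fold change below 0 in late GN. miR-142-3p, miR-142-5p and miR-223 were listed on every array. Their lowest signals were 2.76, 3.08 and 11.3 blank SDs above the blank mean, so that miR-142-3p and miR-142-5p came close to the blanks. The part of these miRNAs in the results of the members was not tested.

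Of 10 further miRNAs known to respond to Toll-like receptors or NF-kB, 8 were listed on all arrays. All 8 had a log2 fold change below 0 in early GN, and 4 had one in late GN. The list medians were -0.69 and -0.075 on the deposited scale, against -0.38 and 0.45 over the 411. At a common median the list medians were -0.31 and -0.39. On the deposited scale limma made 0 calls in the list in all 3 comparisons. It called 0.243% of the 411 in early GN, 4.14% in late GN and 1.7% in late against early GN. At a common median 4 of the 8 were called in late GN, against 62% of the 411. Of these 1 was higher, miR-21 (0.86, limma adjusted p = 0.0192), a miRNA widely induced in injured kidney, and 3 were lower, miR-125a-5p (-0.64, 0.0082), miR-125b-5p (-0.56, 0.0152) and let-7e (-0.95, 0.0026). miR-21 was 844, 943 and 1255 in control, 772, 575 and 2017 for early GN, and 2719, 1622 and 2598 for late GN. The late GN arrays lay above the control arrays, but early GN array 3 lay among them.

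Among 13 measured miRNAs of endothelium, mesangium, podocytes, tubules and red blood cells, 0 were called by limma on the deposited scale. In late GN 11 of the 13 had a log2 fold change below 0, with a median of -0.62 against 0.45 over the 411. At a common median 10 of the 13 were called lower, as were 29.9% of the 411. Their summed intensity was 64783 to 70162 in control, 41549 to 49430 in late GN and 27711 to 65106 in early GN. This sum mostly reads the abundant miRNAs of the list. miR-126-3p, the most abundant, had 23160 to 25735 in control and 14596 to 19500 in late GN. At the common median 11 of these 13 lay below 0 in late GN, as miR-146b and miR-150 did. The tubule miRNAs did not move alike on this scale. miR-192 and miR-194 had 0.043 and 0.17, whereas miR-204 had -1.31 (limma adjusted p = 0.0011), the lowest of the 13. The part of these 13 miRNAs in the values of the members was not tested.

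**Figure D5:**
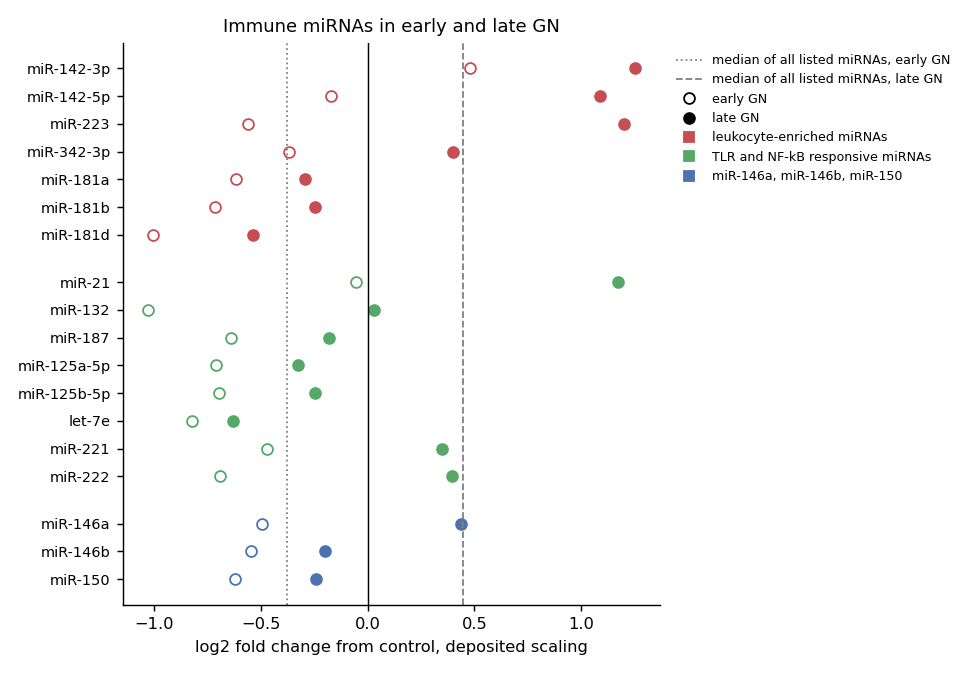
log2 fold change from control on the deposited scaling in early GN (open points) and late GN (filled points) for the leukocyte list, the Toll-like receptor and NF-kB list and the 3 members listed on all arrays, with the medians of all 411 miRNAs as vertical lines at -0.38 and 0.45. miR-142-3p, miR-142-5p, miR-223 and miR-21 stand to the right of the late GN line, and miR-146a lies on it at 0.44.

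Across the 9 arrays, each centred on its median, the pattern most like that of miR-146a was that of miR-342-3p (Pearson r = 0.86), a leukocyte miRNA, followed by miR-674 (0.80) and miR-1949 (0.80). For miR-146b it was miR-511-3p (0.85), then miR-3068 (0.83) and miR-19b (0.83). For miR-150 it was miR-15b (0.87), then miR-130b (0.85) and miR-487b (0.84), and for miR-155 miR-2183 (0.86), the shared probe of miR-486 and miR-3107 (0.77) and miR-665* (0.75). Between members r was 0.63 for miR-146a with miR-146b and 0.61 for miR-146b with miR-150, and -0.20 to 0.33 for the other 4 pairs. These values describe 9 arrays that share their groups, slides and residual scale, and were picked as the highest of 411.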

How the data were processed

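Isolated glomeruli of 9 mice were profiled on 3D-Gene mouse miRNA chips in the study's 3 groups, taken from the sample titles. The authors' deposited normalized intensity is linear, and each listed value equals about the spot median minus the mean of the blank spots, times 1 factor per array of 1.09 to 2.34. The deposited scanner intensity per spot was used for unlisted probes and for miR-155. The rule by which the software left probes unlisted is not given in the sources used here. log2 values were fitted with limma 3.58.1 in R 4.3.3, all groups in 1 model with 6 residual degrees of freedom, and p was adjusted by Benjamini-Hochberg over the 411 miRNAs listed on all arrays, or over 1135 probes on intensities rebuilt from the scanner signal and floored at 3.02, the mean blank SD. In the first fit the moderation gave all miRNAs the same variance. Single values were compared by exact permutation tests with scipy 1.17.1, whose smallest p is 0.1. The series text counts 3 mice per group, and each array was taken as a mouse. The fit was tested on simulated data with independent noise and no array-wide shift or slide effect, so that test does not cover those features of the arrays. Alternatives were the common median, the 75th percentile of listed or of all probes, the spike controls, normexp with quantile normalization, a pseudocount of 16, all probes, the series value table, each array left out, replicate number or slide as a block, only the groups compared, and the methods' t-test. Described were the 4 members, their other arms, list members that passed the test with miR-142-3p, miR-142-5p and miR-223, and the 3 miRNAs most like each member. The members and lists were chosen with earlier results of these data known.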

Additional observations from a re-analysis of the deposited data

How the results depend on the processing

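Over all members, comparisons and alternatives, 228 of 252 values kept their direction and their side of the threshold, 17 changed sign and 7 passed the threshold. In late against early GN the log2 fold change of miR-146b was -0.35, -0.29, -0.59 and -0.17, and that of miR-150 -0.32, -0.12, -0.42 and -0.10, with the common median, the 75th percentile of listed probes, that of all probes and normexp. The 75th percentile of all probes gave miR-146a -0.076 in late GN against control. With listed values only, chosen after the data were seen, miR-155 had 1.46 in late GN against control and -0.69 against early GN. Within arrays, normexp gave 0.089 for miR-146a minus miR-142-3p and -0.071 for miR-155 minus miR-142-3p in late GN against control, and 0.026 for miR-150 minus miR-146a in early GN, and a pseudocount of 16 gave -0.16 and 0.060 for the last pair. The cause of these changes was not tested.

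With single arrays left out, log2 fold changes in early GN against control ran from -0.94 to 0.088 for miR-146a, -1.01 to -0.081 for miR-146b, -1.36 to -0.23 for miR-150 and -0.84 to 0.60 for miR-155. In late GN against control they ran from 0.12 to 0.74, -0.36 to 0.012, -0.39 to -0.061 and 1.43 to 2.18, and in late against early GN from 0.35 to 1.38, -0.12 to 0.81, -0.013 to 1.12 and 1.10 to 2.53, in the same order. All 6 calls by this route came without early GN array 3. Within arrays, the ranges were -0.076 to 0.49 for miR-146a minus miR-142-3p in late against early GN, -0.83 to 0.31 and -0.11 to 1.04 for miR-155 minus miR-142-3p in early and late GN against control, and -0.51 to 0.36 for miR-150 minus miR-146a in early GN.

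The limma counts of called miRNAs, 1 in early GN, 17 in late GN and 7 in late against early GN, were 44, 255 and 1 with the common median, 16, 177 and 0 with the 75th percentile of listed probes, 23, 158 and 0 with that of all probes, 0, 31 and 1 with the spike controls, 56, 152 and 0 with normexp, 15, 42 and 9 with the pseudocount, and 0, 6 and 5 over all probes. In late GN the split into higher and lower was 132 to 123 with the common median, 102 to 75 and 37 to 121 with the 75th percentiles, and 74 to 78 with normexp. They were 0, 0 and 4 with slide as a random block, 0, 272 and 0 with only the groups compared, 0, 229 and 0 with the methods' t-test after adjustment, and ranged from 0 to 237, 0 to 228 and 0 to 376 with single arrays left out. At an unadjusted p under 0.05 limma on the deposited scale called 9 miRNAs higher and 56 lower for early GN, 113 and 12 for late GN, and 124 and 1 between the stages. Replicate numbers did not pair the arrays (correlations of deviations from -0.22 to 0.34). With the replicate block the counts were 1, 16 and 5, no member was called, and the adjusted p of miR-146a was 0.625, 0.489 and 0.176. Signal over background limits miR-155, and 228 of the 1135 probes were listed on no array.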
